A study of Mus musculus with 32 samples.

Results

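The genes described here encode the AP-1 transcription factors and their relative ATF3. They are the 9 genes *Fos*, *Fosb*, *Fosl1*, *Fosl2*, *Jun*, *Junb*, *Jund*, *Atf3* and *Maff*, out of 54838 genes in a table of expected read counts from mouse muscle, and all 9 were found by symbol. The list was drawn up with earlier KO against WT results of these same data in view, the large *Fosl1* difference at P21 among them. The values of these genes in KO against WT are therefore a description and carry no test. RNA was measured in the tibialis anterior (TA) muscle, a fast muscle of the lower hindlimb, in 32 libraries with n=4 for each of 8 groups. The groups were WT littermates and *Mtm1* KO mice on the C57BL6/J background at postnatal day 1 (P1), P14, P21 and P35. The KO mice are males that lack exon 4 of the X-linked gene *Mtm1* in every cell, not in muscle alone, as a model of X-linked myotubular myopathy. All 32 libraries had the expression pattern of males.

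AP-1 is a pair of proteins of the basic leucine zipper (bZIP) class, usually 1 of the Jun family (JUN, JUNB, JUND) with 1 of the Fos family (FOS, FOSB, FOSL1, FOSL2) or of the ATF family. The pair binds a short DNA element, the TRE, and ATF3 and CREB family dimers prefer the longer CRE. *Fos*, *Fosb*, *Junb*, *Atf3* and *Maff* are known as immediate early or early response genes, whose transcripts appear within minutes of a stimulus and decay fast. In muscle such genes are known to rise with contraction, injury and handling of the tissue, and *Jund* is known as the more constitutive Jun gene.

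The stretches of DNA just upstream of 5 of these genes are shown because several of the genes moved together, 4 that stood higher in KO at P35 and *Jun*, which did not. Windows from 250 bases before to 50 bases after each RefSeq start (build GRCm38.p6) were given for 8 of the 9 genes, 10 windows in all, with 3 for *Maff*; none was given for *Fosl1*. Both strands were searched for the TRE (TGACTCA), the CRE (TGACGTCA), the variant of the CRE known from the *Jun* promoter (TGACATCA), the CArG box bound by SRF, and the CRE core (TGACG), which the CRE also contains. The core was added after the sequences had been seen. The 100 bases before the start are printed 5′ to 3′ in the direction of transcription, with matches in capitals on whichever strand they lie.
*Fos* (chr12:85473790-85473889, plus strand): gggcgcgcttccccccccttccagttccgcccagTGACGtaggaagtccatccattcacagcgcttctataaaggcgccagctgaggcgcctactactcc
*Fosb* (chr7:19310046-19310145, minus strand): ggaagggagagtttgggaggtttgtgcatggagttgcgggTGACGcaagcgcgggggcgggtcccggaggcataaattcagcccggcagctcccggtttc
*Jun* (chr4:95052223-95052322, minus strand): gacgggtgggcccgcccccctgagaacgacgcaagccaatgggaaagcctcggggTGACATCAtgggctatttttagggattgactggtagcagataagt
*Atf3* (chr1:191183334-191183433, minus strand): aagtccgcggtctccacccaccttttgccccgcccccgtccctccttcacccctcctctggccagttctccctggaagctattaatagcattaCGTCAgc
*Maff* (chr15:79347420-79347519, plus strand): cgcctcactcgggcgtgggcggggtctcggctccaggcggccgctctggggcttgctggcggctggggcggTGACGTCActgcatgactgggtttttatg

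The full TRE was in none of the 10 windows and in 5.2% of all 32851 windows of the RefSeq table. The full CRE was in the window of the second *Maff* start, where its first base lies 29 bases before the start, and in 1.79% of all windows. The Jun type variant began 45 bases before the start of *Jun* and 45 bases before the third *Maff* start, and was in 3.62% of all windows. No CArG box was found in the 10 windows, against 1.63% of all. The short core was in 6 of the 10 windows (of *Atf3*, *Fos*, *Fosb*, *Junb* and *Maff*), against 20.8% of all windows, and in *Fos* it began 66 and 129 bases before the start. A match is a run of letters and not a measured binding site, and elements outside these windows were not searched.

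The counts summed to between 49321035 and 85631408 per library. *Mtm1* was at 18.9 to 24.9 CPM (read counts scaled to an equal library size) in the 12 WT libraries from P14 to P35 and at 2.64 to 4.51 CPM in the 12 KO libraries, and at P1 at 5.26 to 6.02 CPM in WT and 2.32 to 3.91 CPM in KO. The muscle markers were abundant, with a summed level of 10 markers of 84478 to 204430 CPM from P14 on and of 17950 to 35439 CPM at P1. At P1 the 12 keratinocyte markers, genes of skin epithelium, summed to 2326 to 7310 CPM in WT and 2030 to 6059 CPM in KO, and in WT at P14 to 11.97 to 17.3 CPM. CPM values were scaled by TMM over all 32 libraries so that groups can be set side by side, and fold changes came from fits within each comparison. A gene is said to pass the test at an adjusted *P*-value under 0.01 and a fold change over 1.5 in edgeR's quasi-likelihood test.

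In the WT the 9 genes differed widely in level, and *Jund* and *Jun* made up most of their transcripts. Levels between genes are compared per length, as CPM per kb of exon. At P1 in WT, *Jund* stood at 78.7 CPM per kb and *Jun* at 19.2, followed by *Fos* at 8.05, *Junb* at 5.87, *Atf3* at 4.07, *Fosl2* at 3.09, *Maff* at 1.98, *Fosb* at 0.38 and *Fosl1* at 0.18. At P35 in WT, *Jun* (30.7 CPM per kb) stood above *Jund* (23.6 CPM per kb), and the other 7 genes were each at or below 3.16. The share of *Jund* in the summed level of the 9 genes went from 64.8% in WT at P1 to 35.8% in WT at P35. In KO at P35 the sum was 129 CPM per kb against 65.9 in WT, and *Fos* (15.9%), *Junb* (15.8%) and *Atf3* (10.8%) stood next to *Jund* (29.3%) and *Jun* (21.4%).

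**Figure D1:**
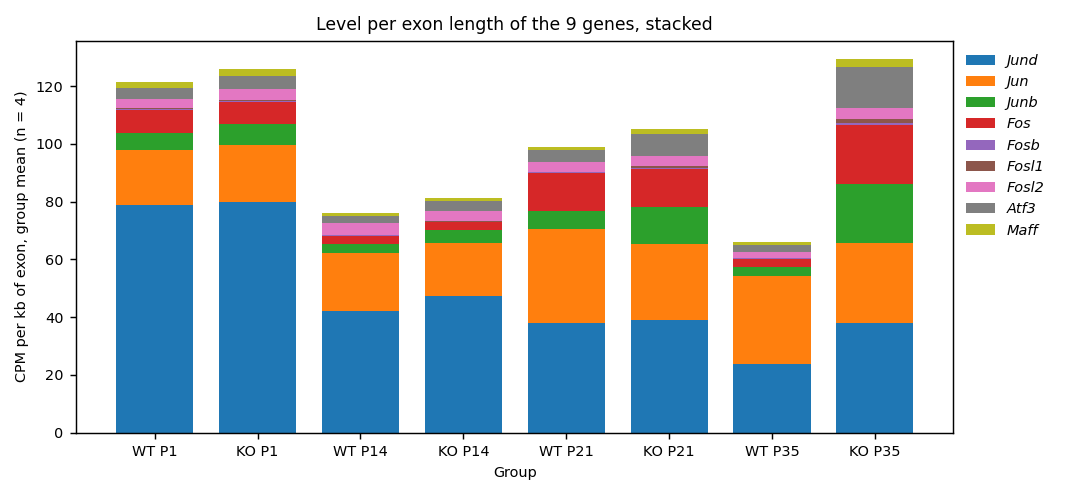
Stacked bars show the group mean level (n=4) of each gene in CPM per kb of exon on the vertical axis for the 8 groups of genotype and age. The blue *Jund* part shrinks with age, and the *Fos*, *Junb* and *Atf3* parts are tall in KO at P35, where the stack reaches 129 against 65.9 in WT.

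With age in the WT, the family fell after birth. The comparison between ages within WT is not the one the genes were chosen from, although it uses the same WT libraries. From P1 to P14, 6 of the 9 genes fell, against 30.4% of all 17435 genes tested that fell and 55.1% that changed in either direction. *Fosl1*, a Fos protein without a transactivation domain, fell the most, from counts of 17, 22, 63 and 47 in the P1 libraries to 0, 2, 3 and 3 at P14 (adjusted *P*=0.000984). *Fos* fell by 1.48 on the log2 scale (s.e. 0.299, adjusted *P*=0.00123) and *Junb* by 0.99 (s.e. 0.123, adjusted *P*=4.56e-05). In both genes every P14 library was below every P1 library, but the share of all genes separated in this way is not given for this comparison. *Jund* fell by 0.92 (s.e. 0.116, adjusted *P*=5.26e-05), from 116, 136, 138 and 136 CPM to 68.3, 65.1, 59.8 and 87.0 CPM. *Maff*, a small MAF protein that lacks a transactivation domain, fell by 1.19 (s.e. 0.177), and *Fosb* by 1.21 (s.e. 0.284). *Atf3* changed by -0.64 (s.e. 0.211, adjusted *P*=0.0179) and did not pass, but it passed as lower with DESeq2, library totals, either other count filter, the replicate block (-0.67) or without WT P14 replicate 2. *Fosl2* stood 0.40 higher at P14 (s.e. 0.162) and *Jun* 0.07 higher (s.e. 0.376), and neither passed; scaled by library totals, which moves the median of all genes to -0.85, both had the opposite sign, at -0.35 and -0.75. The keratinocyte markers fell over the same interval, and the summed muscle markers stood higher at P14. Their part in the result was not tested. *Fosb* did not pass without WT P1 replicate 4 or in a single fit of all 32 libraries, and *Fosl1* was removed when at least 10 counts were required in every library.

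From P14 to P21 and from P21 to P35 in WT, 0 of the 8 genes that could be tested passed, against 5.53% and 2.45% of all genes. At an unadjusted *P*-value under 0.05 stood 4 and 5 of the 8, and DESeq2 called 1 (*Fos*, higher) and 4 (*Atf3*, *Fos*, *Fosl2* and *Jund*, lower). How many of all genes did so by these rules is not given, and no excess is read from the counts. *Fos* stood 2.15 higher on the log2 scale at P21 than at P14 (s.e. 0.615, adjusted *P*=0.0316) and differed by -2.27 from P21 to P35 (s.e. 0.612, adjusted *P*=0.0335). The WT P21 libraries spread widely in *Fos*, at 27.9, 12.5, 9.93 and 72.5 CPM. The highest of them, replicate 4, was also the highest in *Junb* at 32.5 CPM, where the other 3 were at 7.62 to 9.73 CPM. Without it the *Fos* differences were 1.29 (s.e. 0.410, adjusted *P*=0.0580) and -1.40 (s.e. 0.398, adjusted *P*=0.0537). *Jun* was at 41.3, 39.0, 47.5 and 131 CPM in WT at P14, with replicate 4 apart, and at 119, 105, 76.3 and 115 CPM at P21. Without WT P14 replicate 4, *Jun* stood 1.29 higher at P21 (s.e. 0.149, adjusted *P*=0.000755) and passed.

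**Figure D2:**
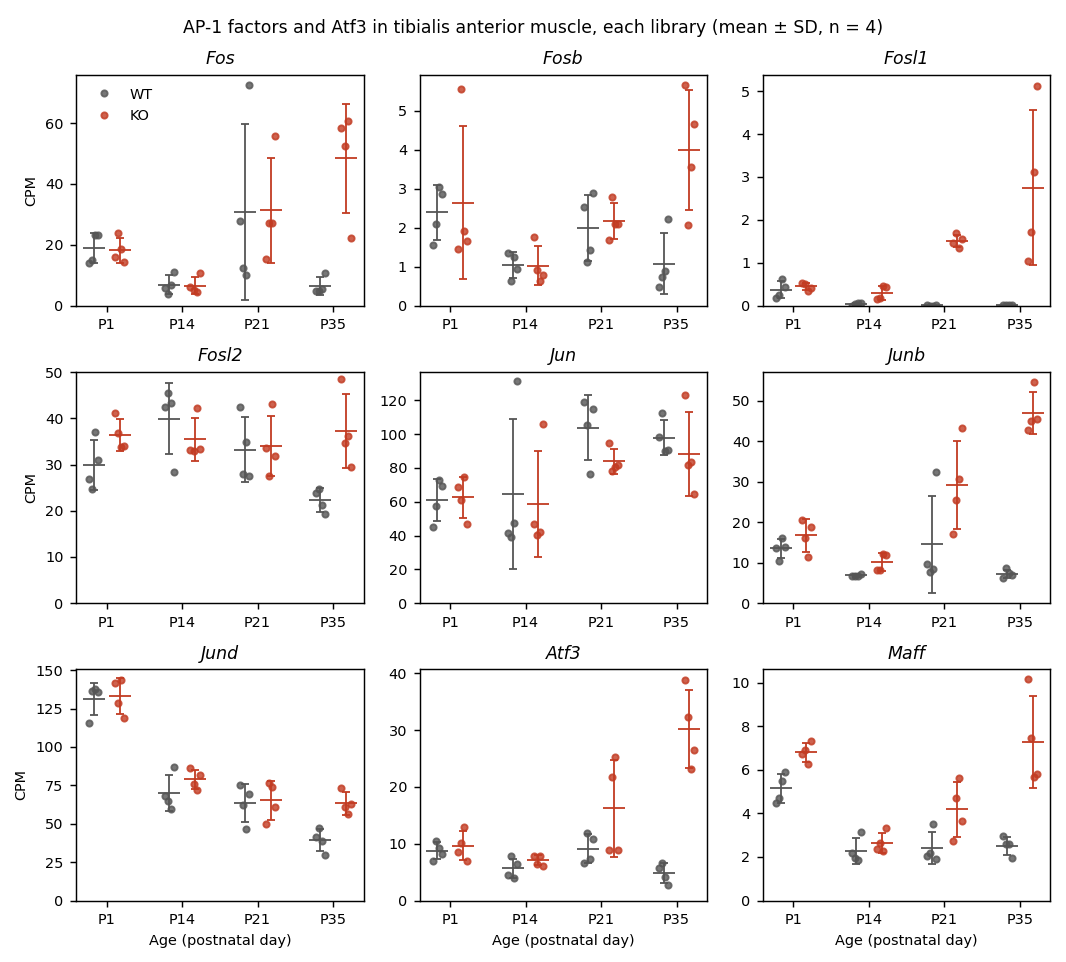
Each panel is 1 gene, with CPM on a vertical axis from 0 and age on the horizontal axis. Dots are the libraries, grey for WT and red for KO, and bars give the mean ± SD (n=4). At P35 the KO libraries lie above the WT libraries in 7 of the 9 genes, and overlap them in *Fosb* and *Jun*.

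The comparison of KO with WT at each age asks at which age these transcripts differ between the genotypes. At P1 and P14 the 2 genotypes were close for most of the family. None of the genes passed at P1 (0 of 9) or P14 (0 of 8 that could be tested), where 0.0442% and 0.0318% of all genes passed. At an unadjusted *P*-value under 0.05 were 2 and 1 of them, for which the share of all genes is not given, and DESeq2 called 0 at both ages. The libraries did not overlap for *Maff* at P1, at 4.48 to 5.88 CPM in WT and 6.27 to 7.33 CPM in KO (log2 fold change 0.42, s.e. 0.105). They did not overlap for *Junb* at P14 either, with WT libraries at 6.75, 6.77, 6.62 and 7.25 CPM and KO libraries at 8.22, 8.08, 12.2 and 11.8 CPM (log2 fold change 0.55, s.e. 0.146). Higher in every KO library were 3.85% of all genes at P1 and 3.28% at P14. *Jun* at P14 had its highest library in replicate 4 of both genotypes, 131 CPM in WT and 106 CPM in KO, whereas the other 6 libraries were at 39.0 to 47.5 CPM. Same-numbered libraries at P14 deviated alike from their group means, although the labels name no pairing. Fitted with the replicate number as a block, the log2 fold change of *Jun* was -0.07 (s.e. 0.0725) in place of -0.14 (s.e. 0.465).

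*Fosl1* was nearly absent from WT muscle from P14 on and present in KO. *Fosl1* is known as a late, sustained member of the Fos family. At P14 its 4 WT libraries held 0, 2, 3 and 3 counts and its KO libraries 9, 12, 27 and 22 counts. Summed over libraries and set against the library sizes, the ratio of KO to WT was 8.06 (95% exact counting interval 3.87 to 19.4), and the gene was below the count filter of the test at that age. At P21 the WT libraries held 1, 0, 0 and 1 counts and the KO libraries 64, 81, 66 and 70, a ratio of 124 (34.1 to 1033). At P35 the WT libraries held 1 count each and the KO libraries 63, 116, 203 and 288, a ratio of 114 (44.3 to 419). At P1 both genotypes had the transcript, with 17, 22, 63 and 47 counts in WT and 70, 56, 29 and 47 in KO. In the same order of libraries, the keratinocyte markers summed to 2892.3, 2326.4, 7309.9 and 3018.5 CPM in WT at P1. In KO at P1 they summed to 6058.6, 5419.8, 2029.5 and 4326.7 CPM, the same ranking as *Fosl1*. In WT replicate 3 was highest in both, but replicates 1 and 2 ranked in opposite order. The part of skin in the P1 level of *Fosl1* was not tested. The intervals cover counting error only. In KO the level was 1.35 to 1.69 CPM at P21, a narrow range, and 1.05 to 5.13 CPM at P35, a range that spans it. *Fosl1* shares a stretch of chromosome 19 (chr19:5447547-5455946, GRCm38) with *Ccdc85b* on the other strand, and although the library kit keeps the strand, the strand setting of the counting is not given in the sources used here, so that reads of the 2 genes may not have been separated.

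At P21 *Fosl1* was the 1 gene of 9 that passed, where 4.67% of all genes passed in either direction and 3.18% were higher. It did not pass when at least 10 counts were required in every library, which removes it. The other 8 genes overlapped between genotypes, so that 1 of 9 was higher in every KO library, where 13.7% of all genes were. *Junb* was at 9.73, 7.62, 8.48 and 32.5 CPM across WT libraries and at 17.1, 25.5, 30.8 and 43.3 CPM in the KO libraries (log2 fold change 1.01, s.e. 0.473). The overlap came from WT replicate 4, without which the value was 1.77 (s.e. 0.283) and *Junb* was a second gene that passed. *Atf3* was at 8.93, 21.7, 25.2 and 8.98 CPM in KO, so that 2 KO libraries lay above the WT range of 6.63 to 11.8 CPM and 2 within it (log2 fold change 0.84, s.e. 0.365). *Maff* was at 2.74 to 5.62 CPM in KO and at 1.91 to 3.53 CPM in WT (0.80, s.e. 0.267). *Fos* was at 15.2, 27.3, 27.1 and 55.7 CPM in KO, inside the WT range of 9.93 to 72.5 CPM, with a log2 fold change of 0.05 (s.e. 0.603) that was 0.92 (s.e. 0.462) without WT replicate 4. The remaining log2 fold changes lay between -0.30 (*Jun*, s.e. 0.123) and 0.13 (*Fosb*, s.e. 0.295).

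At P35 the family stood higher in KO with 1 exception. Passing were 8 of 9 genes, all higher, where 8.49% of all genes passed as higher and 16.0% passed in either direction. Every KO library was above every WT library in 7 of the 9, where 19.2% of all genes were. Since the genes were chosen with this contrast in view, nothing is read from these counts. The median log2 fold change of the 9 genes was 1.91, against 0.04 over all 15595 genes tested, and at P1 and P21 it was 0.16 and 0.13. At P14 it was 0.08 over the 8 genes tested, without *Fosl1*. In bulk RNA, a change in the number of cells of a type and a change in the RNA per cell cannot be told apart. Scaling by library totals put the median of all genes at 0.20 at P21 and 0.44 at P35, against 0.01 and 0.04 with TMM, and kept the sign of each member at both ages except *Jun* at P35.

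Among the Fos genes at P35, *Fos* itself was at 4.65, 4.70, 5.63 and 10.7 CPM in WT. In KO it was at 58.4, 52.6, 60.8 and 22.2 CPM. The KO libraries lay above the WT libraries with a log2 fold change of 2.94 (s.e. 0.371), while all 4 KO values were inside the range of the WT libraries at P21. That range reached 72.5 CPM through replicate 4 alone. The next highest WT P21 library was at 27.9 CPM, below the KO P35 libraries at 58.4, 52.6 and 60.8 CPM. *Fosb*, which encodes a full-length and a shorter protein, was at 0.487, 0.726, 0.878 and 2.21 CPM across WT libraries and at 5.66, 2.06, 3.57 and 4.65 CPM in the KO libraries, so that 1 KO library was below the highest WT library (log2 fold change 1.91, s.e. 0.463). *Fosl2* was at 19.2 to 24.8 CPM in WT and 29.6 to 48.6 CPM in KO (0.77, s.e. 0.1499). In *Fosl2* the WT P35 level was the lowest of the 8 groups, and the KO P35 mean of 37.3 CPM lay within the group means of 29.9 to 39.9 CPM found at P1 to P21.

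Among the Jun genes, *Junb* had the clearest separation. *Junb* encodes a Jun protein that is also known for a part in maintaining muscle mass. It was at 6.21, 8.61, 7.38 and 6.87 CPM across WT libraries and at 42.8, 44.9, 54.5 and 45.5 CPM in the KO libraries (log2 fold change 2.72, s.e. 0.119). *Jund* was at 29.9 to 47.1 CPM in WT and at 56.2 to 73.4 CPM in KO (0.71, s.e. 0.137). The KO mean of *Jund* was 65.1 CPM at P21 and 63.3 CPM at P35, whereas the WT mean was 63.3 and 39.4 CPM. *Jun* was at 98.3, 113, 90.3 and 90.5 CPM across WT libraries and at 123, 81.9, 83.5 and 64.6 CPM in the KO libraries, and the libraries overlapped, with a log2 fold change of -0.12 (s.e. 0.176) that was 0.28 (s.e. 0.177) when scaled by library totals.

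*Atf3*, a stress-inducible repressor and partner of JUN proteins, was at 5.79, 6.55, 4.18 and 2.72 CPM across WT libraries and at 38.9, 32.2, 23.2 and 26.5 CPM in the KO libraries at P35 (log2 fold change 2.68, s.e. 0.268). Its highest value outside the KO P35 group was 25.2 CPM, in KO at P21. *Maff* was at 2.94, 2.57, 2.59 and 1.94 CPM across WT libraries and at 10.2, 7.46, 5.65 and 5.81 CPM in the KO libraries (1.56, s.e. 0.217). The WT means of *Maff* were 2.28, 2.42 and 2.51 CPM at P14, P21 and P35, and the KO P35 mean of 7.28 CPM stood near the KO P1 mean of 6.81 CPM.

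Over the 8 groups, the order of the *Fos* means was KO P35 (48.5 CPM), KO P21 (31.3), WT P21 (30.7), WT P1 (18.9), KO P1 (18.2), WT P14 (6.87), KO P14 (6.60) and WT P35 (6.41). Neighbours in this order overlapped in their libraries except KO P1 and WT P14. WT P21, with its lowest library at 9.93 CPM, also overlapped the 3 lowest groups. *Junb* ran from KO P35 (46.9 CPM) over KO P21 (29.2), KO P1 (16.7), WT P21 (14.6), WT P1 (13.5), KO P14 (10.1) and WT P35 (7.27) to WT P14 (6.85), and *Atf3* from KO P35 (30.2 CPM) over KO P21 (16.2) and KO P1 (9.64) to WT P35 (4.81). In both genes every pair of neighbours overlapped. For *Jund*, both P1 groups (116 to 143 CPM) lay above all others without overlap, 5 groups from P14 on overlapped at 46.7 to 87.0 CPM, and WT P35 (29.9 to 47.1 CPM) was lowest and overlapped WT P21 by 1 library.

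**Figure D3:**
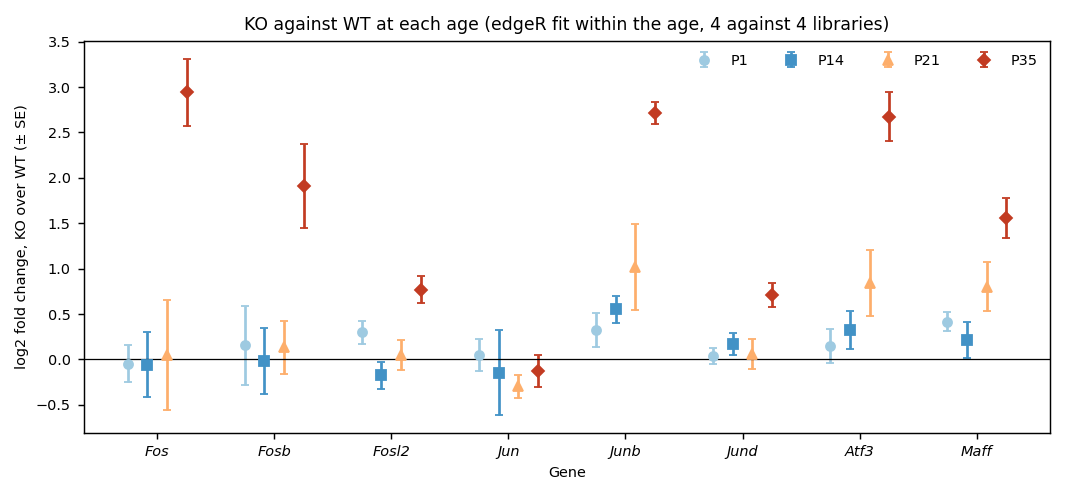
Points give the log2 fold change of KO over WT with its s.e. for 8 genes at 4 ages, each from a fit of 4 against 4 libraries. *Fosl1* is left out because its WT counts were 3 or fewer from P14 on. The red P35 points of *Fos*, *Junb* and *Atf3* lie between 2.68 and 2.94, while *Jun* lies between -0.30 and 0.05 at the 4 ages.

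Leaving out 1 library at a time at P35 gave 5 to 8 genes that passed. Without WT P35 replicate 3, the number was 5, since *Fosb*, *Fosl2* and *Jund* no longer passed, although their log2 fold changes were 1.82, 0.74 and 0.70. *Fosb* was lost in 6 of the 8 such fits. Markers of other cell types moved at the same age, at which 8.49% of all genes passed as higher and 7.52% as lower. Of 12 macrophage markers, 7 rose at P35, and the sum of the 12 was 120 to 153 CPM in WT and 158 to 234 CPM in KO. *Mrc1* went the other way, at 26.4 to 33.5 CPM in WT and 19.6 to 24.6 CPM in KO. The median of *Cd163* was also lower, at 9.23 CPM in WT and 7.91 CPM in KO. Of 10 endothelial markers, 4 fell (sum 562 to 915 CPM in WT and 451 to 545 CPM in KO). Of the muscle markers 1 rose and 1 fell of 10, and their sum was 130760 to 182240 CPM in WT and 84478 to 115870 CPM in KO. Of 8 satellite cell markers, 1 rose and 2 fell, and 1 of 10 fibroblast markers rose. Of 8 Schwann cell markers 1 passed, *Egr2*, which is also an immediate early gene. All 8 were at an unadjusted *P*-value under 0.05 and DESeq2 called 3, counts for which the share of all genes is not given. The median log2 fold change of the list was 1.57, and the sum was 97.7 to 605 CPM in WT and 331 to 1299 CPM in KO. Their part in the rise was not tested. Of the keratinocyte markers, 2 of 4 tested rose, *Trp63* and *Perp*, whereas the basal keratins *Krt5* and *Krt14* had medians of 0.163 and 0.155 CPM in KO at P35 and 0.164 and 0.198 CPM in WT. Mitochondrially encoded transcripts made up 15.6% of counts in WT and 10.4% in KO.

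Other genes of the pathway were described from 4 lists of 94 genes in all, which were drawn up with earlier results of these data known. Their counts and adjusted *P*-values are therefore a description. The 4 lists hold other immediate early genes, genes known as AP-1 targets, other bZIP partners, and the kinases and SRF factors known to act upstream. At P1 and P14 none of the 94 genes passed in edgeR. At an unadjusted *P*-value under 0.05 were 19 of 91 and 11 of 84 tested, and DESeq2 called 3 and 2. The shares of all genes by these 2 rules are not given, so no excess is read from these counts. A block for the replicate number, by which libraries deviated alike at P14, gave 2 genes that passed at P14, 1 higher and 1 lower. At P21, 4 genes rose and 1 fell of 85 tested, where 3.18% of all genes rose and 1.5% fell. The immediate early gene *Egr3* rose by 1.25 (s.e. 0.228, adjusted *P*=0.00575). *Timp1*, an inhibitor of matrix metalloproteinases, rose from 1.43 ± 0.689 to 11.5 ± 2.83 CPM (SD, n=4, log2 fold change 3.01, adjusted *P*=0.000585). *Hbegf*, an EGF receptor ligand, rose by 1.34 (adjusted *P*=0.00474) and *Fst*, an inhibitor of myostatin and activin, by 1.28 (adjusted *P*=0.00494). *Map2k6*, an activator of p38 kinases, fell by 0.87 (adjusted *P*=0.00984). The P21 count changed with single libraries. Leaving out 1 gave 1 to 5 genes, the lowest without KO P21 replicate 3, and 2 without WT P21 replicate 1 or 2 or KO P21 replicate 2 or 4, and 3 without WT P21 replicate 4 or KO P21 replicate 1. Scaled by library totals, which puts the median of all genes at 0.20, 7 genes rose and 0 fell at P21. The share of all genes that passed with that scaling is not given. At the same age 5 of 12 macrophage markers rose (sum 121 to 145 CPM in WT and 160 to 198 CPM in KO) and 2 of 8 satellite cell markers fell (sum 119 to 141 CPM in WT and 90.0 to 124 CPM in KO). Also rising were 1 of 10 muscle, 1 of 10 fibroblast and 2 of 3 keratinocyte markers tested. Their part in the result was not tested.

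At P35, 21 of these genes rose and 5 fell of 86 tested, where 8.49% of all genes rose and 7.52% fell. Since the lists were drawn up with earlier results of these data known, nothing is read from these counts. Scaled by library totals, which puts the median of all genes at 0.44, 35 of the pathway genes rose and 2 fell. The share of all genes that passed with that scaling is not given, so the 2 scalings cannot be compared by these counts. Of the 23 other immediate early genes tested, 13 rose and none fell, with a median log2 fold change of 0.86 against 0.04 over all genes. *Egr1*, a zinc finger factor induced with *Fos*, rose from 10.1 ± 4.21 to 144 ± 46.7 CPM (SD, n=4, log2 fold change 3.85, s.e. 0.322, adjusted *P*=7.62e-05). *Egr2* rose by 2.85 (s.e. 0.299, adjusted *P*=0.000177) and *Ier2* by 1.74 (s.e. 0.184, adjusted *P*=0.000186). The list was not uniform, since *Nr4a1* and *Nr4a3* had log2 fold changes of -0.02 (adjusted *P*=0.963) and 0.19 (adjusted *P*=0.817). These last were chosen after their values had been seen.

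Of 18 AP-1 target genes tested at P35, 7 rose and none fell, where 8.49% of all genes rose and 7.52% fell. Nothing is read from these counts either. Their median log2 fold change was 1.41. *Fst* rose from 4.79 ± 1.43 to 30.9 ± 9.58 CPM (SD, n=4, log2 fold change 2.72, adjusted *P*=0.000140), and *Timp1* rose by 3.10 (adjusted *P*=0.000188). *Hbegf*, which passed at P21, had a log2 fold change of 0.17 (s.e. 0.354, adjusted *P*=0.722) at P35, and the difference between the ages was not tested. Of 23 other bZIP partners tested, *Batf3* rose (1.17, s.e. 0.278, adjusted *P*=0.00860) from a low level of 0.218 CPM, and the median of the list was -0.01.

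Of 22 kinases and SRF factors upstream tested at P35, 5 fell and none rose, where 7.52% of all genes fell and 8.49% rose. The list was drawn up with earlier results of these data known, so nothing is read from these counts. Its median log2 fold change was -0.34, against 0.04 over all genes. *Map2k6* went from 57.1 ± 8.82 to 15.9 ± 4.86 CPM (SD, n=4, -1.82, adjusted *P*=0.000216). *Mapk10*, a JNK kinase, changed by -2.91 (adjusted *P*=0.000305). *Mapk9*, another JNK kinase, changed by -0.73 (adjusted *P*=0.000538), and by -0.33 when scaled by library totals, where it did not pass. With that scaling 2 of the list fell (*Map2k6* and *Mapk10*) and 1 rose, where the median of all genes is 0.44. Transcript levels of kinases do not measure their activity.

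**Figure D4:**
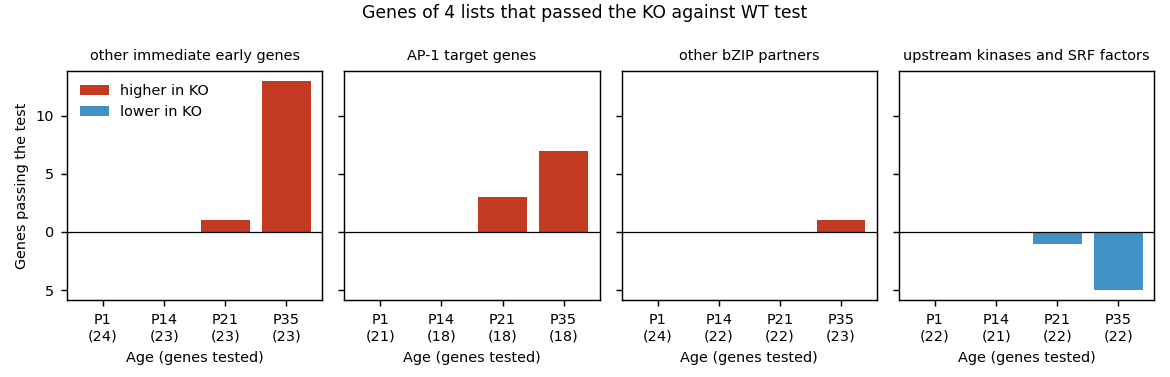
Bars count the genes of each list that passed the KO against WT test, upwards for higher and downwards for lower in KO, at each age, with the number of genes tested in parentheses. At P1 and P14 no bar appears. At P35 the immediate early list reaches 13 and the target list 7 upwards, and the kinase list 5 downwards.

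Mice of the same genotype and age also differed from each other in these genes. For each library the deviation from its group mean was taken on the log2 CPM scale, a quantity that group differences do not enter, and *Fos* was set against the other 8 genes, *Egr1* and *Ier2*, 10 relations in all. Over 32 libraries, 4 relations had an adjusted *P*-value under 0.05 by Pearson's r in a two-sided permutation test within groups. They were *Junb* (r=0.65, *P*=0.00520, adjusted *P*=0.0246), *Egr1* (r=0.58, *P*=0.0186, adjusted *P*=0.0465), *Jun* (r=0.53, *P*=0.00127, adjusted *P*=0.0127) and *Fosb* (r=0.48, *P*=0.00738, adjusted *P*=0.0246). By rank, *Fosb* (rho=0.58, *P*=0.00343, adjusted *P*=0.0244) and *Jun* (rho=0.51, *P*=0.00488, adjusted *P*=0.0244) passed, and *Junb* (rho=0.38, *P*=0.0610, adjusted *P*=0.122) and *Egr1* (rho=0.45, *P*=0.0325, adjusted *P*=0.0987) did not. The 2 libraries farthest in *Fos* were WT P21 replicate 4 (deviation 1.69) and replicate 3 (-1.17). Without them r was 0.44 for *Junb*, 0.45 for *Egr1*, 0.54 for *Jun* and 0.44 for *Fosb*. Of the 10 relations 1 passed, that of *Jun* (adjusted *P*=0.0385), while *Fosb*, *Junb* and *Egr1* each had an adjusted *P* of 0.0803. The group means were not taken anew for this check. The other WT P21 libraries kept their deviations from the mean of all 4, so the libraries left out still entered r through that mean. Deviations of same-numbered libraries at P14 correlated over all genes kept, at 0.19 to 0.59. The labels name no pairing, but these libraries may not be independent. Replicate 4 of both genotypes at P14 was high in both *Fos* (deviations 0.79 and 0.80) and *Jun* (1.22 and 0.97). Without the 8 libraries of P14, a choice made after the data had been seen, r over 24 libraries was 0.41 for *Jun* (adjusted *P*=0.159), so that its relation with *Fos* passed only with the P14 libraries. For *Egr1* it was 0.76, for *Junb* 0.71 and for *Fosb* 0.55 (adjusted *P*=0.0243 for each). *Atf3* (r=-0.08, adjusted *P*=0.808) and *Maff* (r=0.03, adjusted *P*=0.899) did not pass. For *Maff* r was 0.35 without the 2 farthest libraries, -0.29 within WT and 0.43 within KO, a difference that was not tested. The r of *Jun* was 0.53 within WT and 0.52 within KO, and the r of *Fosb* 0.74 and 0.16, a difference that was not tested.

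**Figure D5:**
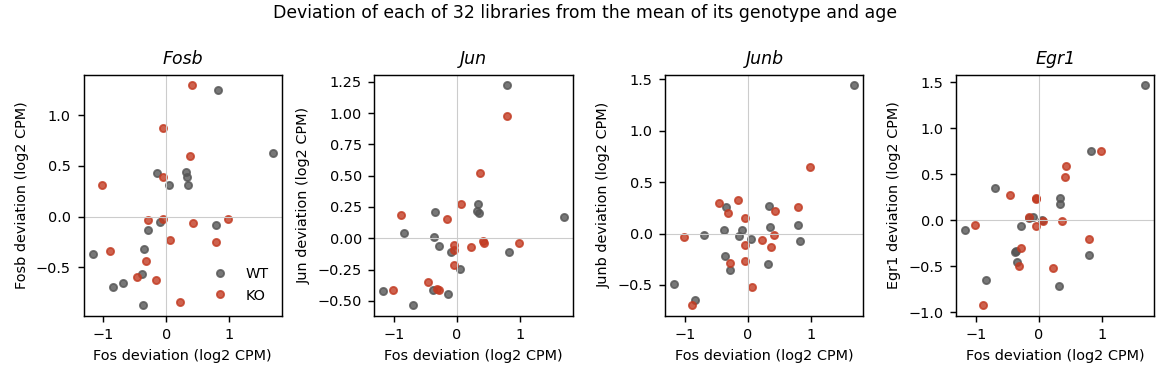
Each dot is 1 of 32 libraries, grey for WT and red for KO, with the *Fos* deviation from its group mean on the horizontal axis and that of *Fosb*, *Jun*, *Junb* or *Egr1* on the vertical axis, both in log2 CPM. The dot farthest to the right, at 1.69, is WT P21 replicate 4, which is also the highest in *Junb* and *Egr1*.

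The genes whose pattern over all 32 libraries was most like each member were named by Pearson's r of log2 CPM, which includes the differences between groups and has no test. *Fos* was most like *Egr1* (r=0.87), *Ier2* (0.81) and *Tmem144* (0.79). *Fosb* was most like *Egr1* (0.82), and *Atf3* like *Egr2* (0.85). *Junb* was most like *Gm26532* (0.91), followed by *Egr1* (0.90) and *Tec* (0.88). *Fosl1* followed *Il20rb* (0.97), *Krt18* (0.96) and *Klf5* (0.95), the last 2 known from epithelia. *Jun* was most like *Syt12* (0.89) and *Dusp1* (0.86), a phosphatase of MAP kinases. The r of the deviations between mice was 0.82 for *Syt12* and 0.87 for *Dusp1*. Both include the P14 libraries, which may not be independent and where replicate 4 of WT and KO was high in *Jun* (deviations 1.22 and 0.97). Neither r was checked without those libraries. *Jund* was most like *Rbm22* (0.94) and the ribosomal protein genes *Rpl23a* (0.93) and *Rps26* (0.93). *Maff* was most like *Acrbp* (0.89), *Cdc42se1* (0.88) and *Mt1* (0.88), a metallothionein. *Fosl2* had no gene above 0.68, the value for *Nr4a2*.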

How the data were processed

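RNA of the TA muscle was sequenced in 32 poly(A) libraries, n=4 WT and n=4 *Mtm1* KO at each of 4 ages, grouped by the sample labels, and p-values measure the spread between these mice. The authors aligned paired-end reads to GRCm38 with STAR, and the deposited table holds expected counts per gene (RSEM), not whole for 4.26% of values, without scaling or pooling. The submitters' processing notes name STAR 2.6.1, RSEM 1.2.22 and DESeq2, and the methods name HTSeq. The library kit keeps the strand, but the annotation release and strand setting of the counting are not given in the sources used here. Genes that overlap another on the opposite strand (*Fosl1*, *Jun*, *Junb*, *Jund*, *Atf3*) are therefore uncertain.

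Counts were rounded and tested in edgeR 4.0.16 (R 4.3.3) with filterByExpr, TMM, glmQLFit and glmQLFTest, two-sided, within the 8 libraries compared, and adjusted by Benjamini-Hochberg over every gene tested. Standard errors were derived as the absolute log2 fold change divided by the square root of the F statistic of the test. Levels are CPM with TMM over all libraries, and lengths are exon lengths from GENCODE M21. *Fosl1* ratios have exact binomial 95% intervals. Deviations were taken on log2 CPM (prior count 2) and 100000 permutations within groups. The *Fosl1* intervals use counts summed over the 4 libraries of a group, so they cover counting error only and not the spread between mice. PCR copies were not marked, so even the counting error may be understated.

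The members and lists were chosen with earlier results of these data known. Named were all members, *Mtm1*, up to 3 genes of each list at each age with the smallest adjusted *P*-value among those that passed, and the 3 genes most like each member. One gene that this rule names is not reported here. Alternatives were DESeq2 1.42.0, RLE size factors, library totals, no filter, at least 10 counts in every library, a single fit of all 32 libraries, a block for the replicate number, an adjusted *P*-value under 0.05, leaving out each library, and, for the deviations, a prior count of 0.5, library totals and the 2 farthest libraries left out. Leaving out the P14 libraries there was added after the data were seen. Deviations of same-numbered libraries correlated at 0.19 to 0.59 in all 4 pairs at P14, which was the 1 comparison where every pair was above 0.1. No replicates were within sampling noise of each other, and the test was checked on simulated data. The table held 0 columns left unused.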

Additional observations from a re-analysis of the deposited data

Results flagged for a closer look

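In groups of 4 libraries the highest or lowest library was compared with the rest, and of 72 such tests (9 genes in 8 groups) 7 stood apart by Dixon's criterion, where chance gives about 1 in 20. *Fos* in WT at P35 was highest in replicate 4 at 10.7 CPM. *Fosb* in KO at P1 was highest in replicate 2 at 5.56 CPM, and *Fosl2* in KO at P14 in replicate 3 at 42.3 CPM. *Jun* at P14 was highest in replicate 4 of both genotypes, at 131 CPM in WT and 106 CPM in KO. *Junb* in WT at P21 was highest in replicate 4 at 32.5 CPM. *Jund* in WT at P1 was lowest in replicate 1 at 116 CPM.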

How the results depend on the processing

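Depth limited *Fosl1*, with 3 or fewer counts in each WT library from P14 on. With at least 10 counts in every library, 0 members passed at P21. The share of all genes that passed under each alternative below is not given, so no excess is read from any of these counts. DESeq2 called 3, 2, 9 and 34 pathway genes at P1, P14, P21 and P35. No filter gave 1 pathway gene at P1, all 32 libraries in 1 fit gave 9 at P21, and an adjusted *P*-value under 0.05 gave 1 at P1 and 10 at P21. Between WT P14 and P21, 1 member passed with DESeq2, with all 32 libraries and at the looser threshold, and between WT P21 and P35 it was 4, 2 and 4. Leaving out 1 library gave 0 to 0 members at P1 and P14, 1 to 2 at P21, 5 to 8 at P35, 5 to 7, 0 to 1 and 0 to 0 in the WT age comparisons, and 0 to 0, 0 to 0, 1 to 5 and 19 to 26 pathway genes at the 4 ages. The 5 was without WT P35 replicate 3 and the 2 without WT P21 replicate 4. Without the 2 farthest libraries, with the group means not taken anew, 1 relation with *Fos* passed, and r of *Fosl2* was 0.00064. With library totals r of *Maff* was -0.023. Without the 8 libraries of P14, added after the data were seen, 3 relations passed, and r was 0.046 for *Fosl2* and -0.16 for *Maff*.

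Log2 fold changes reversed for *Jun* in WT P14 against P1, at -0.75 (library totals), -0.020 (at least 10 counts), and -0.52 to 0.26 over libraries left out, for *Fosl2* at -0.35 (library totals), for *Maff* in P21 against P14 at -0.054 (library totals) and -0.15 to 0.28 (libraries left out), and for *Maff* in P35 against P21 at -0.037 (library totals) and -0.072 to 0.29 (libraries left out). The cause was not tested. With the replicate number as a block, 2 pathway genes passed at P14 and *Jun* in WT P14 against P1 was -0.11, while 28 pathway genes passed at P35 and 7 members in WT P14 against P1. The block changed no other count of genes that passed.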
